A study of Mus musculus with 6 samples.

Results

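The genes of the cytosolic ribosomal proteins were followed in RNA from mouse heart. Members were the protein-coding rows whose symbol begins with Rpl, Rps or Rplp and a digit, or is Rpsa, and the S6 kinase genes (Rps6k) were left out. The rule took 94 of 54352 rows. Of these, 77 were the standard proteins of the ribosome (43 of the large subunit, 31 of the small subunit and 3 of the stalk), 8 were paralogs, 8 carried the name of a retrocopy, and 1 was Rps19bp1, which binds Rps19 and is not itself a ribosomal protein. The 6 libraries fell into 3 groups of 2, made from total heart RNA depleted of ribosomal RNA. Control mice were kept on regular chow, with no vector. Both other groups were C57BL/6 mice made diabetic from 12 weeks of age with a diet drawing 60% of its calories from fat and 1 streptozotocin injection of 75 mg/kg, a toxin of pancreatic beta cells, and are called T2D after the labels' type 2 diabetes. Both received adeno-associated virus (AAV) by the jugular vein, 16 to 18 weeks past streptozotocin, and hearts were studied 4 weeks later, 5 to 6 months after induction. The T2D empty vector group got an empty virus. The T2D dnMCUb group got one for a mutant, dominant negative MCUb with a FLAG tag, MCUb being part of the channel that takes calcium into mitochondria. Control and T2D empty vector therefore differed in diet, streptozotocin and vector at once. Whether each library is a separate animal is not in the labels, and a p-value here reflects only how these libraries spread, which may be technical.

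Cytosolic ribosomal proteins assemble with ribosomal RNA into a small subunit, which reads the messenger RNA, and a large subunit, which joins amino acids. Their genes are among the most active in most cells, and many of their messenger RNAs begin with a C followed by an uninterrupted run of pyrimidines, the 5′ terminal oligopyrimidine (TOP) tract, through which mTOR signalling controls their translation. These short, abundant messenger RNAs have also been copied back into the mouse genome many times, so that most ribosomal protein genes have processed pseudogenes, or retrocopies, of nearly the same sequence.

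That last property came first in reading the table. Some standard genes had very low values where a copy of the same sequence had high ones. Pairs are shown here to let the likeness be seen, 60 bases of coding sequence each, read 5′ to 3′ on the coding strand from GENCODE release M21 transcripts, with capitals at the bases where the pair differs. Rps6, the small subunit protein that the S6 kinases phosphorylate, was identical to the processed pseudogene Rps6-ps4 over all 747 coding bases, and coding bases 344 to 403 are printed.
Rps6: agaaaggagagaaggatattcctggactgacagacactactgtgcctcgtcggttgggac
Rps6-ps4: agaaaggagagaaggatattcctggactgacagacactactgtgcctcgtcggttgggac
Rps27 was identical over all 252 coding bases to Rps27rt, a retrocopy that the table types as protein-coding. Rpl9 and Rpl9-ps6, also typed as protein-coding, were identical at 575 of 576 coding bases, and the single difference lies in coding bases 259 to 318.
Rpl9: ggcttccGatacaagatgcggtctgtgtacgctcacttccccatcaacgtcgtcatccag
Rpl9-ps6: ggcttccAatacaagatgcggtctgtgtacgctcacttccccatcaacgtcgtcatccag
Rpl3, which shapes the centre where peptide bonds form, and its striated muscle paralog Rpl3l were a different case. They were identical at 505 of 678 aligned coding bases (74.5%), with 17 differences in coding bases 818 to 877 of Rpl3, and no 50-base window of Rpl3l occurs in another gene.
Rpl3: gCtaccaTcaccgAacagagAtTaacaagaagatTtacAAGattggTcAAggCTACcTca
Rpl3l: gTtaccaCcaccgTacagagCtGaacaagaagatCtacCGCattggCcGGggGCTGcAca

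Levels are the authors' regularized log (rlog) values, which are on the log2 scale, and levels of different genes were compared per kilobase, as rlog minus log2 of the transcript length in kb. Over the 77 standard genes the mean level per kb ran from 2.04 to 13.01. Among the highest were Rplp1 (13.01), an acidic protein of the stalk that recruits elongation factors, and Rpl8 (12.36). The lowest were Rps29 (2.04), Rpl28 (2.57) and Rpl36a (2.87), followed by Rps13 (2.99) and Rps6 (3.00). All of these are standard parts of the ribosome, and levels so far apart were set against shared sequence. For each gene the share of 50-base windows of its transcripts that also occur, on either strand, in transcripts of other annotated genes was computed. The 19 standard genes with a mean rlog under 5 had a median 71.9% of windows in common with other genes (34.5% to 98.6%), and the 58 others had 48.2% (0% to 93.3%). All 19 had a detected copy that shared at least 20% of their windows, and for 16 of the 19 such a copy stood higher per kb than the gene itself. Of the 58, 45 had such a copy and 16 had one above the gene. Across the 77 genes, the level per kb and the share of windows had a Spearman rho of -0.52 and a Pearson r of -0.49. This is a description over genes measured in the same libraries, which are not independent.

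**Figure D1:**
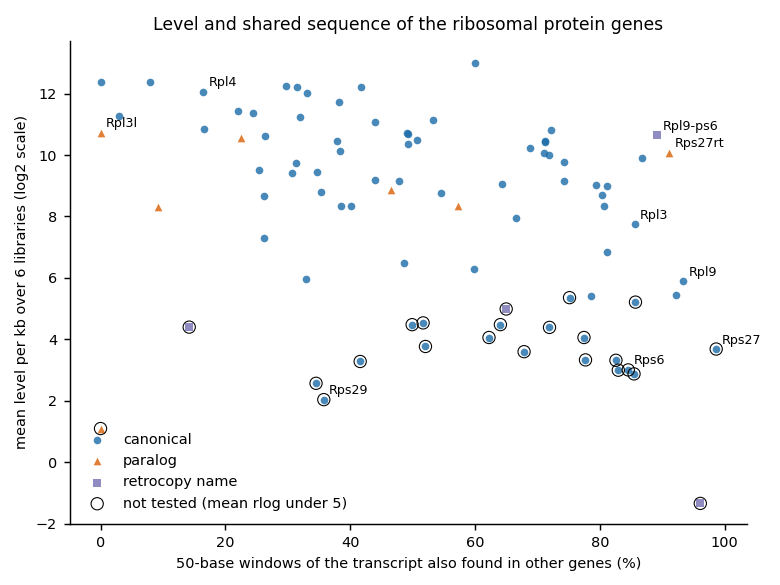
Each point is a gene, with the share of its 50-base windows that also occur in other annotated genes (%) on the x axis and its mean level per kb over the 6 libraries (log2 scale) on the y axis. Circles mark genes with a mean rlog under 5, which were not tested. Genes listed at 0 and Rps19bp1 are left out. At the right-hand side Rps6 and Rps27 lie low, at 3.00 and 3.68, and Rpl9-ps6 and Rps27rt high, at 10.65 and 10.07.

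Rps6 had rlog values of 2.80 and 2.82 in control hearts, of 2.81 and 2.80 with T2D empty vector, and of 2.78 and 2.80 with T2D dnMCUb. These values hardly varied, but rlog draws low values towards the gene's mean, so a steady level cannot be read from them. The authors' log2 folds for Rps6 were -0.30 (T2D empty vector against control), -0.94 (T2D dnMCUb against control) and -0.63 (T2D dnMCUb against T2D empty vector). None had an unadjusted p under 0.05 in the authors' deposited table. Rps6 stood at 3.00 per kb where Rps6-ps4 stood at 9.49 per kb, with 84.6% of windows in common. Rps27 stood at 3.68 per kb and Rps27rt at 10.07 (98.6% in common). Rpl9 (5.90 per kb) and Rpl9-ps6 (10.65) shared 86.1%. Rps29, the gene with the lowest level, shared 35.8% of windows with the processed pseudogene Gm14303, which stood at 12.36 per kb. Rpl10a, Rpl12 and Rps13 showed the same arrangement beneath Rpl10a-ps1, Gm10275 and Rps13-ps2. Rpl11, which with Rpl5 binds the p53 regulator Mdm2, and Rps27a, which is made as a fusion with ubiquitin, were also under the limit, at rlog values from 3.76 to 3.80 and from 3.70 to 3.73. How the authors' counting treated reads that fit several places is not given in the sources used here, so values of these genes and of their copies are uncertain, and what share of the reads belongs to which was not tested. A total of 297 pseudogene rows were named after a ribosomal protein. Of these, 119 were listed at 0 in all libraries and 35 had a mean rlog of at least 5, the highest being Rpl14-ps1 at 10.94.

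**Figure D2:**
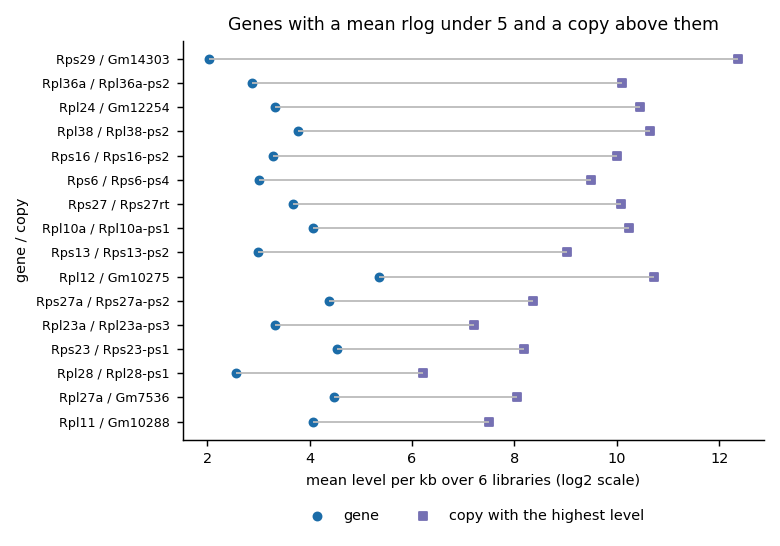
The 16 standard genes with a mean rlog under 5 that had a copy standing higher, each with its highest copy (gene and copy on the y axis). The x axis is the mean level per kb over the 6 libraries (log2 scale), circles are genes and squares are copies. The gap is widest for Rps29 and Gm14303, at 2.04 and 12.36.

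Paralogs were set beside the standard gene, with the same uncertainty where windows are shared. Rpl3l is known from the ribosomes of heart and skeletal muscle. Its level per kb exceeded that of Rpl3 in every library, by 3.13 and 2.94 (log2 scale) in control hearts, by 2.97 and 2.98 with T2D empty vector, and by 2.80 and 3.06 with T2D dnMCUb. The mean of 2.98 is a ratio of 7.89, and the groups overlapped. Since 81.5% of the windows of Rpl3 occur in Rpl3-ps1 (8.51 per kb, against 7.74 for Rpl3), the level of Rpl3 itself is uncertain. Per kb, Rpl22 exceeded its paralog Rpl22l1 by 2.96 to 3.10, and Rpl7 exceeded Rpl7l1 by 2.72 to 2.93. Of the windows of Rpl22l1 57.3% occur in other genes, and of those of Rpl7 53.3%, so the levels behind both ratios are uncertain too. Rpl39l had a mean rlog of 0.77, and Rpl10l, an autosomal copy of X-linked Rpl10 known from testis, was listed at 0 in all libraries. The X chromosome carried 4 members, Rpl10, Rpl36a, Rpl39 and Rps4x.

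Promoter sequence bore on the members as a group, since they are known for the TOP tract. The RefSeq table of promoters (GRCm38.p6, 250 bases before to 50 after each annotated start) held 78 promoters of 66 members. A C at the annotated start, followed by pyrimidines to a run of at least 5 on the gene's strand, was found in 14 of the 78 (17.9%) and in 823 of all 32851 promoters (2.51%). The letters CCGGAAGT, on either strand anywhere in this window, which can hold the core of sites for ETS factors, occurred in 12 (15.4%) and in 1277 of all (3.89%). These are matches of letters at the annotated start, which may lie away from the start used in heart. Of the members with the tract that return below, some, such as Rps27rt and Rplp2, are not printed. Windows of 15 bases before and 15 from the start are shown for Rpl35, Rps15a and Rps10, with the tract in capitals. They lie at chr2:39005117-39005146, chr7:118116133-118116162 and chr17:27635230-27635259, all on the minus strand, in the order printed.
Rpl35: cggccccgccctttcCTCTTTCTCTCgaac
Rps15a: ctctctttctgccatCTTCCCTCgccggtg
Rps10: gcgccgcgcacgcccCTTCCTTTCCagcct

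Differences between groups were tested with limma on the 13094 genes whose mean rlog reached 5, which took in 66 members (58 standard genes, 6 paralogs, Rpl9-ps6 and Rps19bp1) and left out 28, of which 5 were listed at 0. The range of a tested member over the 6 libraries had a median of 0.16, with 0.04 as the smallest and 0.33 (Rps27rt) as the largest, and the median range over all genes tested was 0.12. Mcub, whose mutant form the vector carries, was at 5.62 in T2D dnMCUb library 1 and at 5.47 in library 2. The control and T2D empty vector libraries lay between 5.42 and 5.48. Mcub did not tell the groups apart (T2D dnMCUb minus T2D empty vector 0.08, SE 0.05, limma adjusted p = 0.888), so directions involving dnMCUb rest on the labels. T2D dnMCUb library 1 stood apart from the rest. Over all genes, the SD of its deviations from the gene means was 0.097, against 0.052 to 0.070 in the others, and its Myl7, an atrial marker, was at 10.22 against 7.32 to 9.45. Heart muscle markers were high in every library, with Myh6 the highest at a mean of 18.95.

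Diabetic hearts with an empty vector were compared with control hearts to ask what diabetes, with the vector, went along with. Ribosomal protein genes were mostly a little lower in T2D empty vector. Of the 66 tested members, 58 were lower (87.9%), where 51.8% of all genes tested were, and the median difference was -0.06 (log2 scale; all genes tested -0.0025). No member passed limma with adjustment over all genes, and neither did any other gene (0%). At an unadjusted p under 0.05 there were 4 members, all lower, or 6.06% of those tested, where 6.13% of all genes were past it in either direction and 2.87% were lower. In the authors' deposited table, too, 0 members had an adjusted p under 0.05 (0.255% of rows with a fold did), and 5 had an unadjusted one, all lower (2.11%). Libraries of the groups did not overlap for 37 members on the lower side (22.5% of all genes) and for 4 on the higher side (19.9%).

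Rpl35 (ENSMUSG00000062997.6, minus strand of chromosome 2 from 39001580 to 39005624, GRCm38), a protein beside the exit of the peptide tunnel, had the smallest p. Control libraries had an rlog of 8.34 and 8.32, T2D empty vector libraries of 8.11 and 8.18, and T2D dnMCUb libraries of 8.29 and 8.27. Both T2D empty vector libraries lay below all others. The difference between T2D empty vector and control was -0.18 (SE 0.04; limma, adjusted p = 0.581), and the authors' deposited table gives a log2 fold of -0.46 with an adjusted p of 0.654. Rpsa, a small subunit protein also known as a laminin receptor, was at 10.23 and 10.19 in the controls, at 10.04 and 10.06 with T2D empty vector, and at 10.10 and 10.21 with T2D dnMCUb. Its difference from control was -0.16 (SE 0.05, adjusted p = 0.759). Its lower libraries were those of T2D empty vector, and T2D dnMCUb overlapped control. Rpl7a was at 8.97 and 8.86 in the controls and at 8.77 and 8.72 with T2D empty vector, a difference of -0.17 (SE 0.06). Rpl7l1, the paralog of Rpl7, differed by -0.12 (SE 0.04). Shared sequence makes some of these values uncertain too. Of the windows of Rpl7a 81.2% occur in other genes, of those of Rpsa 44.0% and of those of Rpl35 40.1%. Gm2000, which holds 37.6% of the windows of Rpl35, stood at 8.39 per kb against 8.34 for Rpl35.

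By role, 25 of 32 standard large subunit genes and 22 of 23 small subunit genes tested were lower, and all 3 stalk genes were. Rplp0, the base of the stalk, was at 12.72 and 12.59 in the controls and at 12.61 and 12.58 with T2D empty vector, so the groups overlapped. All 6 tested paralogs were lower with no overlap, among them Rpl3l (-0.09, SE 0.08) and Rps27l (-0.06, SE 0.04), a p53 target. The 8 members on the higher side (48.2% of all genes) were led by Rpl36 at 0.06 (SE 0.02, adjusted p = 0.805), which was 5.41 and 5.42 in the controls and 5.48 and 5.46 with T2D empty vector. The value of Rpl36 is uncertain, since 81.1% of its windows occur in other genes and 53.0% in Rpl36-ps12, which stood at 10.19 per kb against 6.85 for Rpl36. That copy went the other way, at 8.89 and 8.84 in the controls and 8.75 and 8.78 with T2D empty vector. Rpl5, which carries 5S ribosomal RNA into the large subunit, was also on the higher side (0.03, SE 0.03), at 6.48 per kb beneath a copy, Gm15500, at 9.72 that holds 48.5% of its windows. Members with under 20% of windows in common with other genes were lower in 8 of 8, with a median of -0.08, and the 64 tested copies had 54 lower with a median of -0.03. Members with an unadjusted p under 0.05 numbered 2 without control library 1 (3.03%; 2.93% of all genes in the same fit). They numbered 1 (1.52%) without T2D empty vector library 1 (3.46% of all genes) or library 2 (3.99%), and 12 (18.2%) without either T2D dnMCUb library (10.3% of all genes both times). The members on the higher side numbered 20 without control library 1 and 18 without T2D empty vector library 2.

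**Figure D3:**
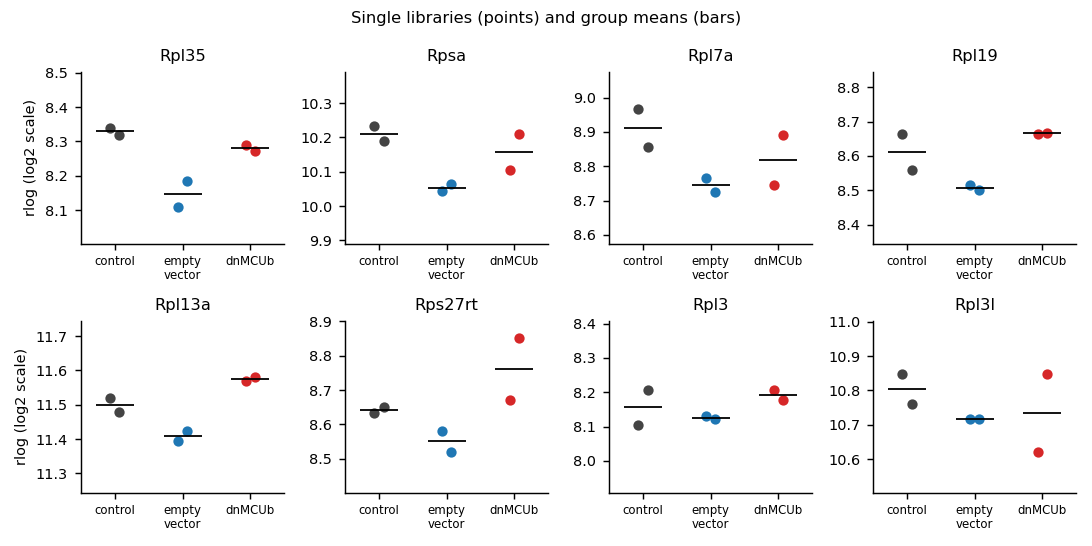
Single libraries (points) and group means (bars) of 8 members, with rlog (log2 scale) on each y axis over the same width of 0.5 and the 3 groups on the x axis. Rpl35, Rpsa, Rpl19 and Rpl13a were lowest in T2D empty vector, while Rpl3l spread most between the T2D dnMCUb libraries, at 10.62 and 10.85.

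Diabetic hearts with dnMCUb were compared with diabetic hearts with an empty vector, the comparison that differs in the vector's cargo alone. It uses the same T2D empty vector libraries as the comparison before, so the opposite directions of the pair are not independent of each other. Ribosomal protein genes were mostly higher in T2D dnMCUb, in 59 of 66 tested members (89.4%; 49.5% of all genes), with a median difference of 0.09 (all genes tested -0.0005). With limma 0 members passed adjustment over all genes, and 0% of genes did. At an unadjusted p under 0.05 there were 16 members (24.2%), all higher, where 5.64% of all genes were past it and 3.12% were higher. The authors' deposited table had 0 members with an adjusted p under 0.05 (0.0311% of rows) and 2 with an unadjusted one (0.896%), Rps27rt and Rpl13a. Groups did not overlap for 45 members on the higher side (15.6% of all genes) and 2 on the lower side (16.5%).

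Rps27rt (ENSMUSG00000050621.7, minus strand of chromosome 9 from 114982366 to 114982739) had the largest difference. It was at 8.58 and 8.52 with T2D empty vector, at 8.67 and 8.85 with T2D dnMCUb, and at 8.63 and 8.65 in the controls. The T2D dnMCUb libraries were the highest and stood well apart from each other. Its difference was 0.21 (SE 0.06; limma, adjusted p = 0.784), and since Rps27rt has the coding sequence of Rps27, the value can hold reads of either gene. Rpl19 was at 8.51 and 8.50 with T2D empty vector and at 8.66 and 8.67 with T2D dnMCUb, a difference of 0.16 (SE 0.05, adjusted p = 0.784). Its control libraries, at 8.66 and 8.56, were above T2D empty vector, and the higher of them was level with T2D dnMCUb. The value of Rpl19 is uncertain too, since 79.3% of its windows occur in other genes. Its copy Rpl19-ps11 stood at 9.31 per kb against 9.03 for Rpl19. Rpl13a, known outside the ribosome for silencing inflammatory messenger RNAs, was at 11.39 and 11.42 with T2D empty vector, 11.57 and 11.58 with T2D dnMCUb, and 11.52 and 11.48 in the controls. Its difference was 0.17 (SE 0.05). Rps19, the protein most often mutated in Diamond-Blackfan anaemia, differed by 0.15 (SE 0.05), from 9.75 and 9.81 to 9.96 and 9.91.

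Rps15a differed by 0.16 (SE 0.05), with 10.00 and 9.94 with T2D empty vector and 10.09 and 10.16 with T2D dnMCUb. Rpl35, the lowest against control, differed by 0.13 (SE 0.04), and its T2D dnMCUb libraries still lay below both controls. Among the 16 were also Rpl7, Rpl23, Rps4x, Rpl39 (which lines the peptide tunnel), Rps20, Rps3 (at the entry of the messenger RNA channel), Rpl34, Rps10 and Rplp1, with differences from 0.12 to 0.15. Of these, Rpl23 (9.45 per kb) stood beneath its copy Gm9794 (11.92) and Rps20 (10.69) beneath Gm4332 (11.07), so their values are uncertain too. By role, 27 of 32 large subunit genes, 21 of 23 small subunit genes, 3 of 3 stalk genes and 6 of 6 paralogs were higher. The muscle paralog Rpl3l was at 10.72 in both T2D empty vector libraries and at 10.62 and 10.85 in T2D dnMCUb, which lie on either side (0.02, SE 0.08). Rps25, used by some viral RNAs for entry into the ribosome, had the largest difference among the 7 on the lower side (-0.04, SE 0.05; 50.5% of all genes were lower), and its groups overlapped. The copies had 56 of 64 higher, with a median of 0.06. Without T2D dnMCUb library 1 the member median was 0.13. Without library 2 the median was 0.06, and the lower side held 12. With T2D empty vector library 1 left out the lower side held 4.

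**Figure D4:**
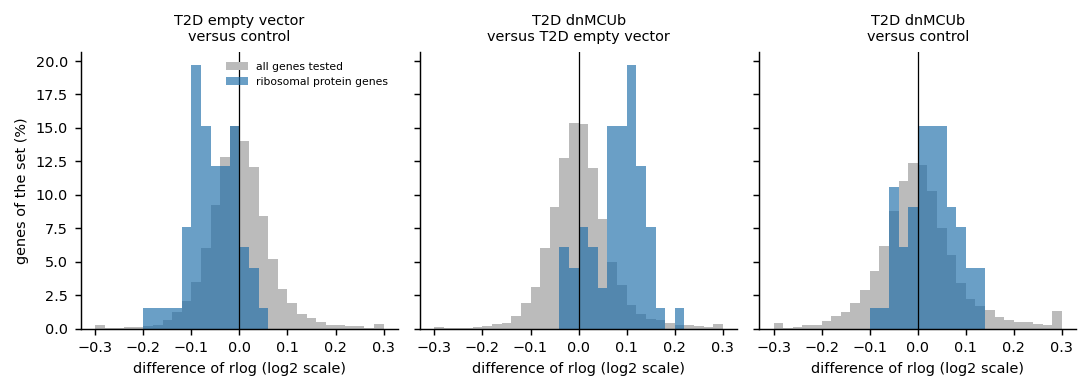
Share of genes (%, y axis) by difference of rlog (log2 scale, x axis, bins of 0.02, with values beyond 0.3 in the end bins) for the tested members and for all genes tested, in the 3 comparisons. The medians of the members are -0.06, 0.09 and 0.02 from left to right.

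Diabetic hearts with dnMCUb were set beside control hearts, which shares libraries with both comparisons above. Of the 66 tested members 47 were higher (71.2%; 48.5% of all genes), with a median of 0.02. By limma 0 members were called, where 0.0687% of all genes were, and 2 had an unadjusted p under 0.05 (3.03%; 11.4% of all genes), both higher (5.89%). The authors' deposited table had 0 members by adjusted p (0.357% of rows) and 0 by unadjusted p (2.63%). Rpl34 was at 9.75 and 9.67 in the controls and at 9.83 and 9.86 with T2D dnMCUb, a difference of 0.14 (SE 0.05, adjusted p = 0.350). Rpl39 differed by 0.13 (SE 0.05), from 10.10 and 10.07 to 10.19 and 10.23. Both T2D dnMCUb libraries lay above control for these genes. Groups did not overlap for 19 members on the higher side (20.2%) and 4 on the lower side (22.7%). The paralogs leaned the other way, with 4 of 6 lower and a median of -0.05. The direction rested on T2D dnMCUb library 2, since without it 34 of 66 members were lower (51.5% of all genes with all libraries) and the median was -0.0006, and without library 1 only 8 were lower and the median was 0.05. Without control library 2 the lower members numbered 29, and 0 members had an unadjusted p under 0.05 (6.13% of all genes in the same fit). Without control library 1 there was 1 such member (1.52%; 6.19%). There were 11 without T2D dnMCUb library 1 (16.7%; 10.3%), and without library 2 there were 2, 0 of them higher (3.03%; 24.3%).

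The libraries themselves show where these differences sit. The mean deviation of the 66 members from their gene means was 0.03 and -0.01 in the controls, -0.04 and -0.05 with T2D empty vector, and 0.01 and 0.07 with T2D dnMCUb, while the mean over all genes tested stayed within 0.0032 of 0. T2D empty vector library 2 was the lowest library for 33 members and library 1 for 15. T2D dnMCUb library 2 was the highest for 42 and control library 1 for 12. Large subunit genes (0.06 in T2D dnMCUb library 2) and small subunit genes (0.08) followed the same order of libraries. Members of a library share that library's preparation, so they are not replicates of each other.

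**Figure D5:**
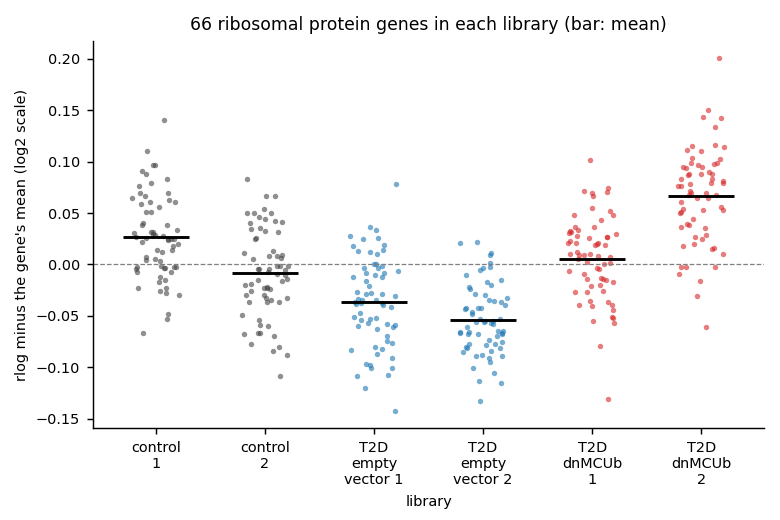
Each point is 1 of the 66 tested members in 1 library, as its rlog minus its mean over the 6 libraries (log2 scale, y axis), by library (x axis), with the bar at the mean. Both T2D empty vector libraries have bars below 0 and T2D dnMCUb library 2 has the highest, at 0.07, whereas T2D dnMCUb library 1 is at 0.01.

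Some other measures moved with the members. Over the 58 standard genes tested, the difference and the mean rlog had a Spearman rho of -0.36 in T2D empty vector against control. The rho was 0.67 in T2D dnMCUb against T2D empty vector and 0.45 in T2D dnMCUb against control. The rlog transformation compresses differences of low values, and its part in this relation to level was not tested. The members are short, with a median transcript length of 742 bases for the standard genes and 2710 for all genes tested, and a smooth trend of each library's deviations on length stood, at the members' median length, at 0.01 and 0.0025 in the controls, -0.0006 and -0.02 with T2D empty vector, and -0.02 and 0.02 with T2D dnMCUb. With that trend removed, 48 of 66 members were lower in T2D empty vector than in control, with a median of -0.04. Red cell markers, 5 of 7 of them among the genes tested, had a summed level (log2 scale) of 12.64 and 11.72 in the controls, 11.71 and 11.74 with T2D empty vector, and 12.47 and 13.00 with T2D dnMCUb. Hbb-bs, a beta globin, was at 11.98 and 10.96, at 10.94 and 10.97, and at 11.80 and 12.36 in the same order. Reticulocytes hold ribosomal protein messenger RNA as well as globin, and the part of these cells in the members' values was not tested. Atrial markers, 4 of 5 tested, had summed levels of 11.55 and 11.28, 10.54 and 10.46, and 12.15 and 10.54. The sum of control library 2 was mostly Nppa, at 11.01, while Myl4 (7.53), Myl7 (7.32) and Sln (6.07) were at their lowest there. Myl4, Myl7 and Sln were highest in T2D dnMCUb library 1, followed by control library 1. Macrophage markers, 8 of 8 tested, had 12.18 and 12.16, 12.22 and 12.16, and 12.42 and 12.28, so that both T2D dnMCUb libraries were above all others. Fibroblast markers, 6 of 6 tested, had 14.48 and 14.35, 14.38 and 14.68, and 15.005 and 14.48. Cardiomyocyte markers, 8 of 8 tested, had summed levels of 20.29 and 20.20 in the controls, 20.12 in both T2D empty vector libraries, and 19.92 and 20.20 with T2D dnMCUb. Skeletal muscle markers, 2 of 6 tested and led by Ckm, which heart also expresses, had 15.10 and 15.04, 14.86 and 14.82, and 14.69 and 14.83. For the summed level of both muscle lists, as for the members' mean, both T2D empty vector libraries lay below both controls. Among the tested markers, Myh6, Tnnt2, Tnni3, Actc1, Myl2 and Ckm did so singly. Myh7, Pln and Acta1 overlapped, and Ryr2 was higher, at 15.91 and 15.94 against 15.85 and 15.83 in the controls. The part of any of these cell types in the members' values was not tested. Of the lymphocyte markers 0 of 8 were tested, with Cd4 the highest at a mean of 4.40. In whole heart tissue, fewer cells of a type and less of an RNA per cell cannot be told apart.

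Genes that work with the ribosome were counted from lists of translation, ribosome production and its control, and 0 of their members were called by limma in any comparison. Of all genes tested, 51.8% were lower in T2D empty vector than in control. In T2D dnMCUb against T2D empty vector 50.5% were lower and 49.5% higher. Rack1, a ribosomal protein outside the naming rule, was lower in T2D empty vector than in control without overlap (-0.08, SE 0.06), and Fau was not tested. Elongation factors and other TOP messenger RNAs had 10 of 17 lower in T2D empty vector (median -0.02) and 14 of 17 higher in T2D dnMCUb against T2D empty vector (0.04), where Eef1a1, which brings aminoacyl-tRNA to the ribosome, differed by 0.21 (SE 0.09). Pabpc1, the poly(A)-binding protein and itself a TOP messenger RNA, was 0.16 higher in T2D empty vector than in control (SE 0.05; limma, adjusted p = 0.684). Initiation and elongation factors without the tract had 14 of 22 lower in T2D empty vector and 15 of 22 lower in T2D dnMCUb against T2D empty vector. The cap-binding protein gene Eif4e differed by -0.13 (SE 0.05) between T2D empty vector and control.

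Genes of RNA polymerase I and ribosome assembly, a list that also holds the member Rps19bp1, did not share the members' direction with dnMCUb. In T2D empty vector 29 of 41 were lower than in control (70.7%, against 51.8% of all genes, median -0.03). With T2D dnMCUb 26 of 41 were lower than with T2D empty vector (63.4%, against 50.5% of all genes, median -0.02). Rrp12, needed to export both subunits from the nucleus, had a difference of -0.17 (SE 0.04; limma, adjusted p = 0.780) in that comparison, and Polr1a, the largest subunit of RNA polymerase I, of -0.13 (SE 0.05). The genes of mTOR, S6 kinases and MYC had 18 of 27 higher in T2D empty vector than in control (48.2% of all genes, median 0.03). With T2D dnMCUb 22 of 27 were lower than with T2D empty vector (50.5% of all genes, median -0.03). Pdcd4, an inhibitor of translation that S6 kinase removes, was 0.21 higher in T2D empty vector than in control (SE 0.05, adjusted p = 0.646), and Deptor, an mTOR inhibitor, 0.13 higher (SE 0.04). Tsc2, which restrains mTOR, differed by -0.15 (SE 0.05) between T2D dnMCUb and T2D empty vector. Host genes of small nucleolar RNAs, 7 of 7 tested, had medians of -0.0016 and 0.02 in these comparisons. How these lists differ from the members was not tested.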

How the data were processed

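RNA of 6 mouse heart libraries, 2 per group, was used from 1 table with a row per gene. The authors deposited regularized log (rlog) values on the log2 scale, and, for 3 comparisons, log2 folds with p-values raw and adjusted. Libraries came from a stranded kit with ribosomal RNA depleted, per the labels' protocols. Tools in the submitters' processing notes are DESeq2, STAR 2.5.2a and bcl2fastq 2.20.0.422, and builds are GRCm38, mm10 and hg38, each without its role. How reads were counted, and those that fit several places treated, is not given in the sources used here. The values are not counts, so depth is unknown and no counting interval is given. The rlog transformation draws low values towards the gene's mean and compresses their differences.

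Differences were tested with limma 3.58.1 (R 4.3.3; trended variances; Benjamini-Hochberg at 0.05) on the 13094 genes whose mean rlog reached 5. A single fit held all 6 libraries and 3 group terms, with 3 residual degrees of freedom and a prior of 4.6. The script was tested on simulated data. Errors beside differences are limma's standard errors. Groups were taken not to overlap where both libraries of one lay beyond both of the other. Windows of 50 bases were searched in GENCODE release M21 transcripts, and a match on either strand counted. The shares can therefore include matches to the opposite strand. Promoters came from RefSeq.

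Members and lists were chosen with earlier results of these data known, and some lists came from that earlier work. The searches of shared windows, coding sequence and promoters were designed after the data were seen. Members were named if called, if among up to 6 per direction with the smallest limma p in a comparison, if on a fixed list of 21 with known roles, or if extreme in level per length or range, and up to 3 other genes per pathway list were named. Rpl7, Rpl9, Rpl9-ps6, Rpl10a, Rpl10l, Rpl12, Rpl39l, Rps10, Rps13, Rps20 and the copies were chosen after their values were seen. Some genes under the rule are not reported here. Alternatives were other filters, scalings and variance models, the replicate block, and each library left out. Same-numbered libraries did not deviate together (correlations of -0.09, -0.01 and -0.51), so the numbers were not taken as pairs.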

Additional observations from a re-analysis of the deposited data

How the results depend on the processing

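The number of members called was 0 under every alternative run, so no call was gained or lost. Across 77 named differences under up to 15 alternatives each, 1115 of 1146 values kept their direction and 31 had the opposite one. The cause of these changes was not tested, except where fewer genes or libraries entered.

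For T2D empty vector against control, the members on the higher side numbered 17 of 88 tested with a mean rlog of at least 0 and 5 of 59 with at least 7. They numbered 18 of 66 with the length trend removed, against 8 of 66. Unadjusted calls numbered 8 with no variance trend (12.1% of tested members, 6.28% of all genes) and 12 with only the groups compared (18.2%, 10.3%), against 4 (6.06%, 6.13%). For T2D dnMCUb against T2D empty vector, the lower side held 16 of 88 tested members with a mean rlog of at least 0 and 2 of 59 with at least 7, against 7 of 66. There, unadjusted calls numbered 25 with no variance trend (37.9% of tested members, 5.92% of all genes) and 9 with only the groups compared (13.6%, 3.99%), against 16 (24.2%, 5.64%). For T2D dnMCUb against control, unadjusted calls numbered 5 with quantile normalization (7.58% of tested members, 12.1% of all genes) and 5 with the length trend removed (7.58%, 11.6%), against 2 (3.03%, 11.4%). With the replicate block, unadjusted calls were 9 for T2D dnMCUb against T2D empty vector (13.6% of tested members, 3.90% of all genes) and 1 against control (1.52%, 8.84%). The block changed no adjusted call, and the medians were the same. With 2 libraries per group, whether each correlates best with its own number was not asked.

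Leaving out members that share at least 50% of windows, an alternative chosen after seeing the data as was leaving out retrocopies and Rps27rt, left 38 members. Of these 34 were lower and 4 higher in T2D empty vector against control, 35 higher and 3 lower in T2D dnMCUb against T2D empty vector, and 24 higher in T2D dnMCUb against control. In T2D dnMCUb against T2D empty vector 9 of the 38 had an unadjusted p under 0.05, where 5.64% of all genes did. 

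With each library left out in turn, T2D empty vector against control had 46 to 58 members lower and 8 to 20 higher, 1 to 12 unadjusted calls and medians from -0.07 to -0.04. T2D dnMCUb against T2D empty vector had 54 to 62 higher and 4 to 12 lower, 5 to 34 unadjusted calls and medians from 0.060 to 0.128. T2D dnMCUb against control had 32 to 58 higher and 8 to 34 lower, 0 to 11 unadjusted calls and medians from -0.0006 to 0.05. An arm left with 1 library was assumed to vary like the others.

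Named differences that changed direction, all with an adjusted p above the threshold, are given here. In T2D empty vector against control, these were Rpl39 (0.0072 with the length trend removed) and Rpl10 (-0.0062 with quantile normalization), and, with a library left out, Rpl39 (-0.069 to 0.051), Rpl10 (-0.022 to 0.024), Rpl34 (-0.018 to 0.055), Rpl3 (-0.081 to 0.022), Rplp0 (-0.13 to 0.0019) and Rplp2 (-0.12 to 0.0082). In T2D dnMCUb against T2D empty vector they were Rps27l (-0.0014 with the length trend removed, -0.0032 to 0.019 with a library left out), Rpl10 (-0.034 to 0.017), Rpl21 (-0.062 to 0.0047), Rpl31 (-0.052 to 0.040), Rpl36al (-0.0090 to 0.11), Rpl3l (-0.096 to 0.13) and Rps25 (-0.11 to 0.030). In T2D dnMCUb against control they were Rpl10 (0.0031 with the length trend removed, -0.033 to 0.018 with a library left out), Rpl22l1 (-0.025 to 0.046), Rpl3 (-0.017 to 0.087), Rpl31 (-0.085 to 0.0068), Rpl36al (-0.10 to 0.014), Rpl3l (-0.18 to 0.044), Rplp0 (-0.045 to 0.14) and Rplp2 (-0.0076 to 0.13).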
